A study of Mus musculus with 3 samples.

Results

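The non-collagen part of the cartilage matrix was followed through 9 genes, of the 31053 listed in the count files, which were taken by symbol: Acan, Hapln1, Comp, Matn1, Matn3, Matn4, Chad, Epyc and Ucma. Their levels were read in stromal cells, defined as cells with at least 1% of their unique molecular identifiers (UMIs, the counted RNA molecules) from Col1a1, Col1a2, Col3a1, Dcn and Lum together. These were 2085 of 8728 passing cells in the Matrigel-only library, 1373 of 5478 in the Vehicle library and 1184 of 7297 in the Palo library.

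All masses grew at subcutaneous sites in female CD-1 mice aged 6 to 8 weeks and were taken on day 5. Matrigel-only mice received Matrigel, a basement membrane gel, without rhBMP2 and nothing by mouth. Vehicle mice received Matrigel with rhBMP2, a recombinant bone morphogenetic protein that starts ectopic cartilage and bone, and the carrier (corn oil and DMSO). Palo mice received Matrigel with rhBMP2 and daily 4 mg/kg of palovarotene, an agonist of the retinoic acid receptor gamma, by mouth. Vehicle therefore differed from Matrigel-only in both rhBMP2 and the carrier, and these cannot be told apart here. Each group was 1 droplet library, in which cells of different masses cannot be separated, so the groups could be compared only as single libraries, without replicates and without a test. Intervals are exact 95% limits (Poisson for levels, Clopper-Pearson for shares, conditional binomial for ratios) and cover counting error only. Shares set to a common depth, given further on, use expected numbers of cells that need not be whole, so their limits are approximate. Fewer cells that make a transcript and fewer molecules per cell cannot be told apart in a summed level, so shares of cells are given beside the levels. Both comparisons with Vehicle use the same Vehicle library.

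Aggrecan is a large proteoglycan that binds long hyaluronan chains, and link protein (Hapln1) locks it in place, which gives cartilage its swelling pressure. Matrilins and cartilage oligomeric matrix protein (COMP) are adaptors that tie collagen fibrils to proteoglycans. Chondroadherin (Chad) and epiphycan (Epyc) are small leucine-rich proteins of the matrix, and Ucma is a small secreted protein of upper growth plate chondrocytes. In endochondral ossification, cells make this matrix before it is replaced by bone.

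The promoter sequences of 8 of the 9 genes were found in RefSeq (GRCm38.p6), as 10 windows, and an entry for Comp was not found. Of the members highest in Vehicle, 4 are shown with Epyc, whose windows alone held the letters marked here, as the 250 bases before each RefSeq start. Core letters bound by SOX factors are shown in capitals. They are ACAATG and its variant with the letters ACAAAG, searched on both strands, so that CATTGT is the first of them read on the other strand. The Hapln1 start of RefSeq lies inside the gene span given further on.

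Acan, chr7:79052976-79053225, plus strand: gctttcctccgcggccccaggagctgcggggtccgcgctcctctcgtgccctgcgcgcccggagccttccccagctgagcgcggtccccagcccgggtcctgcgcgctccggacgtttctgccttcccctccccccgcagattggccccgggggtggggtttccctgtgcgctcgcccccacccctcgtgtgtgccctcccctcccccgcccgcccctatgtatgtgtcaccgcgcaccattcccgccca
Hapln1, chr13:89540386-89540635, plus strand: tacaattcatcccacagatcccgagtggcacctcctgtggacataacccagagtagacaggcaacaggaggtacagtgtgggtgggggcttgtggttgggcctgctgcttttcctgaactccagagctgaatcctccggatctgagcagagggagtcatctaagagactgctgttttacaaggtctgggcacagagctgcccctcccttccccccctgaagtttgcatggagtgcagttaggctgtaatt
Matn3, chr12:8947679-8947928, plus strand: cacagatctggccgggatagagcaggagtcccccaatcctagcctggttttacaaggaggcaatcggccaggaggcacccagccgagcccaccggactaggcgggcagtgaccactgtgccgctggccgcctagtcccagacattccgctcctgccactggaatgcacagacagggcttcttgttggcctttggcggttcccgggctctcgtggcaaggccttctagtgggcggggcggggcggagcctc
Matn4, chr2:164405161-164405410, minus strand: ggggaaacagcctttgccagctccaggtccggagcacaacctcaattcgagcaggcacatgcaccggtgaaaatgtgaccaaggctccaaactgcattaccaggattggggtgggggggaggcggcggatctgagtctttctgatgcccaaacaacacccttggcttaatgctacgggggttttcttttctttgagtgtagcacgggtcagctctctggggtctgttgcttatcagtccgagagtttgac
Epyc, chr10:97643818-97644067, plus strand: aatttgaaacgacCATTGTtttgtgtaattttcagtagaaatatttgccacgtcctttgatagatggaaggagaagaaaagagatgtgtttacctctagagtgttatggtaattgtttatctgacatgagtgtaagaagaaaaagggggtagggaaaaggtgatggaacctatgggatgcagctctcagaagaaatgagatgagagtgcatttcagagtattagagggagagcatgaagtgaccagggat

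ACAATG occurred in 10.7% and ACAAAG in 16.5% of all 32851 windows of this length. In the 8 windows of Acan, Matn1, Matn3, Matn4, Hapln1, Chad and Ucma neither was found, and both Epyc windows held at least 1. The letters AGGTCA, the core element of many nuclear receptors, were in 14.0% of all windows and in none of the 10, and the promoter element with the letters TATAAA was in 12.4% of all and only in that of Chad among the 10. The Acan window was 74.4% G and C, that of Matn3 65.2%, the first of Matn4 and that of Hapln1 54.4%, the other of Matn4 62.8% and the first of Epyc 39.2%, against a median of 52.4% over all windows. The search covered these letters in these windows and no other sites.

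Within the 3 libraries, 5 of the 9 genes stood far higher in Vehicle stromal cells than in the other groups. These were Acan, Comp, Matn3, Matn4 and Hapln1, and Matn4 alone had a clear level in all 3. Acan, Comp, Matn3 and Hapln1 had at most 30 UMIs in the stromal cells of each of the other libraries. Matn1, Chad and Ucma were confined to few cells, and Epyc had its highest level in Matrigel-only. Calls were made at a 4-fold difference of counts per 1000000 UMIs (CPM) with 5 CPM added to both, over the 10311 genes with a mean of at least 5 CPM. Of all genes tested 0.989% passed in Vehicle over Matrigel-only and 1.02% in Vehicle over Palo, and in each the same 5 of 9 members passed. Those 5 were also the only members that passed the filter on low levels. Of them 4 passed it through the Vehicle library alone, and had to be high there, so the counts are a description. No member was lower past 4-fold, against 1.36% of all genes in Vehicle over Matrigel-only, 0.659% in Vehicle over Palo and 0.0485% in Palo over Matrigel-only. No member exceeded 9.28 CPM in Matrigel-only or Palo, so with 5 CPM added none could be called lower, and this count is no result about them. In Palo over Matrigel-only 0 of 9 members passed, against 0.0097% of all genes, and the median log2 ratio of the members was 0.00. At these levels no higher call could be reached there either, and the added 5 CPM draws the ratios to 0. This 0 and this median therefore do not show that Palo and Matrigel-only were alike. Without the 5 CPM, Acan was 16.5-fold (2.47 to 700) and Chad 43.1-fold (7.22 to 1750) higher in Palo. Epyc was 10.3-fold (1.54 to 436) lower, and these ratios rest on 1 to 34 UMIs per library. With 5 CPM added, the median log2 ratio of the members was 2.98 in Vehicle over Matrigel-only and 2.64 in Vehicle over Palo. Over all genes tested these medians were -0.04 and -0.01.

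**Figure D1:**
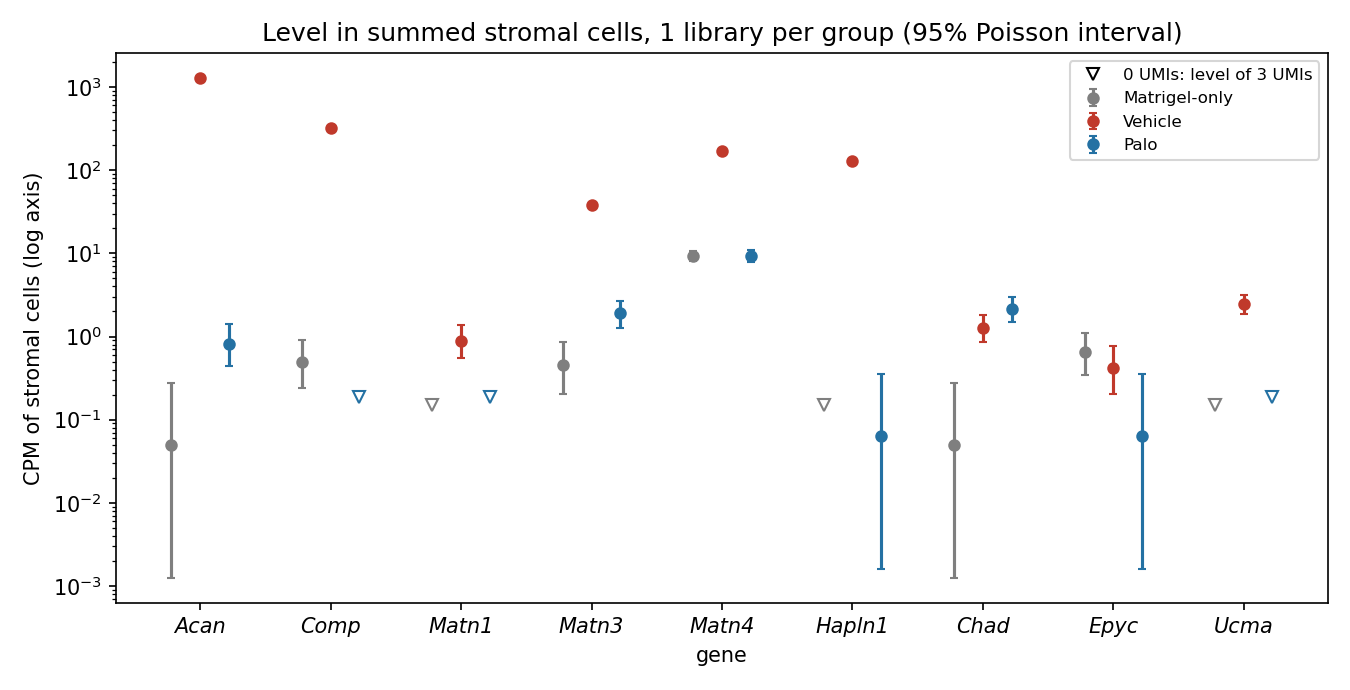
Level of each of the 9 genes in summed stromal cells of the Matrigel-only, Vehicle and Palo libraries, in CPM on a log axis, with 95% Poisson intervals; triangles mark 0 UMIs at the level that 3 UMIs would give. Acan, Comp, Matn3, Matn4 and Hapln1 sit highest in Vehicle, while Chad is at 1.27 CPM in Vehicle and 2.15 CPM in Palo and Epyc at 0.648 CPM in Matrigel-only and 0.424 CPM in Vehicle.

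Among the proteoglycan and its stabilizer, Acan (chr7:79053483-79115099, plus strand, mm10) had 1 UMI in Matrigel-only stromal cells, 29948 in Vehicle and 13 in Palo. These were 0.0499 CPM (0.00126 to 0.278), 1269 CPM (1255 to 1284) and 0.821 CPM (0.437 to 1.40). The log2 ratio of Vehicle over Palo was 10.59 (9.82 to 11.50), and that over the single UMI of Matrigel-only was 14.64 (12.16 to 19.94). Of the 13 Palo UMIs, 7 came from 1 of the 4 Palo cells with Acan. Hapln1 (chr13:89539796-89611652, plus strand) had 3051 UMIs in Vehicle, 0 in Matrigel-only and 1 in Palo. Its Vehicle level of 129 CPM (125 to 134) was at least 864-fold above the level of 3 UMIs in Matrigel-only (exact lower limit 702-fold), and over the 1 Palo UMI the ratio was 2048 (367 to 80900). In Vehicle it was found in 285 of 1373 cells, with up to 123 UMIs in a cell, and Acan in 779 with up to 315. Both genes of the aggrecan aggregate were thus high in Vehicle alone.

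Comp (chr8:70373558-70382066, plus strand) was detected with 10 UMIs (0.499 CPM, 0.239 to 0.917) in Matrigel-only stromal cells, 7556 (320 CPM, 313 to 328) in Vehicle and 0 in Palo. In Palo 3 UMIs would be 0.189 CPM, and the exact upper limit was 0.233 CPM. Vehicle was 642-fold (349 to 1340) above Matrigel-only and at least 1690-fold above the level of 3 UMIs in Palo (exact lower limit 1374-fold). Matn3 (chr12:8947929-8972028, plus strand), a matrilin of growth plate cartilage, gave 9, 899 and 30 UMIs, or 0.449 CPM (0.205 to 0.852), 38.1 CPM (35.7 to 40.7) and 1.89 CPM (1.28 to 2.71). Its Vehicle level was 84.9-fold (44.5 to 186) above Matrigel-only and 20.1-fold (14.0 to 30.0) above Palo. The Palo level of Matn3 was 4.22-fold (1.95 to 10.1) above that of Matrigel-only, and 28 of the 29 Palo cells with it had 1 UMI.

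Matn4 (chr2:164389393-164405160, minus strand), a matrilin that is also made outside cartilage, had 3993 UMIs in Vehicle, 186 in Matrigel-only and 146 in Palo. These were 169 CPM (164 to 175), 9.28 CPM (7.99 to 10.7) and 9.22 CPM (7.79 to 10.8). Vehicle was 18.2-fold (15.7 to 21.2) above Matrigel-only and 18.4-fold (15.6 to 21.8) above Palo, and the log2 ratio of Palo over Matrigel-only was -0.01 (-0.33 to 0.31). Matn1 (chr4:130944385-130955475, plus strand), also called cartilage matrix protein, had 21 UMIs in 7 Vehicle cells, 1 of which held 10, and 0 in the stromal cells of the other libraries. Ucma (chr2:4976122-4985748, plus strand) had 58 UMIs in 22 Vehicle cells (2.46 CPM, 1.87 to 3.18) and 0 elsewhere, at least 16.4-fold above the level of 3 UMIs in Matrigel-only and 13.0-fold above that in Palo (exact lower limits 12.9 and 10.2).

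Chad and Epyc did not follow this order. Chad (chr11:94565047-94569127, plus strand) had 1 UMI in Matrigel-only, 30 in 10 Vehicle cells and 34 in 8 Palo cells, or 0.0499, 1.27 (0.858 to 1.82) and 2.15 CPM (1.49 to 3.001). Its log2 ratio of Vehicle over Palo was -0.76 (-1.51 to -0.004), and 1 Palo cell held 12 of the 34 UMIs. Epyc (chr10:97644068-97682454, plus strand) had 13 UMIs in 5 Matrigel-only cells, 10 in 9 Vehicle cells and 1 in Palo. The log2 ratio of Vehicle over Matrigel-only, -0.61 (-1.96 to 0.69), and that of Vehicle over Palo, 2.75 (-0.07 to 8.19), had intervals that included 0.

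Shares of cells were set to the same depth, because stromal cells of Vehicle were deeper (median 17114 UMIs) than those of Matrigel-only (9082) and Palo (12955). At 3000 UMIs per cell, 1883, 1304 and 1131 stromal cells remained, and 202, 69 and 53 shallower cells were left out. Acan was then detected in 0.0160% of Matrigel-only, 50.1% (47.4 to 52.9%) of Vehicle and 0.129% of Palo stromal cells, and without thinning in 0.0480%, 56.7% and 0.338%. Comp was in 0.0793%, 26.4% (24.0 to 28.8%) and 0%, where the exact upper limit for 0 of 1131 cells is 0.326%. Hapln1 was in 0%, 12.6% (10.8 to 14.5%) and 0.0146%, and Matn3 in 0.113%, 6.90% (5.59 to 8.42%) and 0.551% (0.207 to 1.18%). Matn4 was in 3.07% (2.33 to 3.95%), 27.2% (24.8 to 29.7%) and 2.56% (1.72 to 3.66%). Acan was thus in about as many Vehicle cells as not, while Matn4 was the one member seen at this depth in over 1% of the stromal cells of the other libraries. Without thinning, Matn3 was in 2.45% (1.65 to 3.50%) of Palo stromal cells. Chad was in 0.304% (0.0821 to 0.779%) of Vehicle and 0.460% (0.154 to 1.05%) of Palo stromal cells at 3000 UMIs, with intervals that overlapped. Its shares without thinning were 0.728% and 0.676%. Epyc was in 0.155% (0.0311 to 0.459%) of Matrigel-only and 0.153% (0.0186 to 0.553%) of Vehicle stromal cells at 3000 UMIs. Without thinning the shares of Epyc were 0.240% and 0.655%.

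Of the Acan molecules of the Vehicle library, 87.2% were in stromal cells, 0.335% in myeloid cells, 0.772% in cells of neither class and 11.7% on barcodes outside the cell limits. Myeloid cells, which are not known to make cartilage matrix, were read beside the stromal cells. Their median depth was 2983, 3375.5 and 4192 UMIs. In the Vehicle library 2.28% (1.62 to 3.11%) of them had Acan at 3000 UMIs, 0.247% (0.0698 to 0.620%) Hapln1 and 0.749% (0.395 to 1.29%) Matn4, all below the stromal shares. The order differed for Comp, which was detected in the myeloid cells of all 3 libraries, at 3.001 CPM (2.31 to 3.84), 7.75 CPM (6.26 to 9.49) and 2.28 CPM (1.75 to 2.92), with 63, 94 and 63 UMIs. In Palo the same gene had 0 UMIs in stromal cells, and in Matrigel-only its stromal level of 0.499 CPM lay below its myeloid level. The part of free RNA in the myeloid values of Comp was not tested. The 10 Matrigel-only stromal UMIs of Comp were in 8 cells, of which 6 had Lyz2, a myeloid gene (1883 CPM against 433 CPM in the other stromal cells), and 3 had the leukocyte gene Ptprc (37.5% against 8.62%). The part of myeloid RNA in these 10 UMIs, and so in the ratio over them, was not tested. Acan had 0 UMIs in the myeloid cells of Matrigel-only and of Palo. It had only 1 and 13 UMIs on all barcodes of these libraries, so its absence says nothing about the Comp molecules there.

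**Figure D2:**
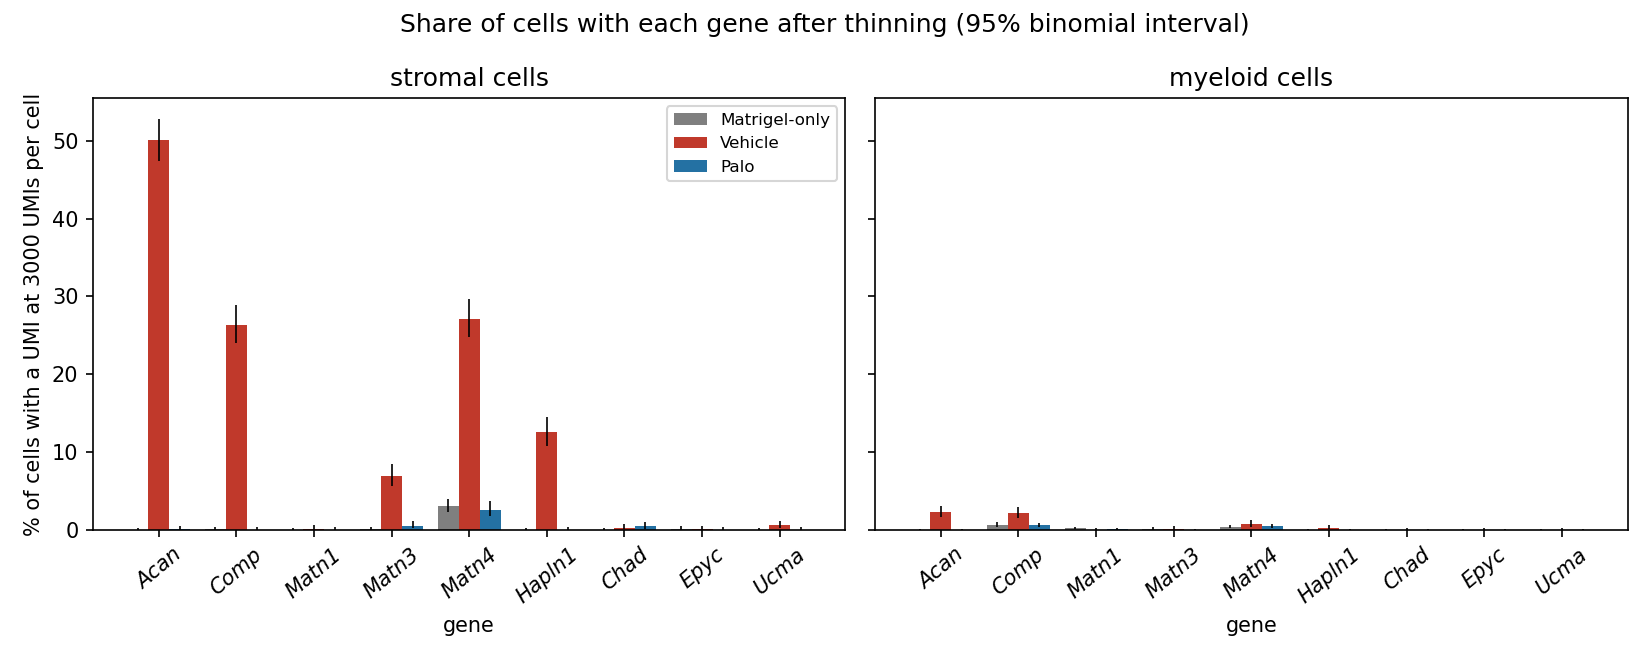
Share of stromal (left) and myeloid (right) cells with a UMI of each gene after thinning to 3000 UMIs per cell, with 95% binomial intervals, for the 3 libraries. Acan reaches 50.1% of Vehicle stromal cells, Matn4 27.2% and Comp 26.4%, and in myeloid cells no bar exceeds 2.28%.

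The number of the 9 genes in each cell was also read, which in part restates the shares of the single genes. The numbers that independent detection would give were not computed. At 3000 UMIs, 56.7% (54.0 to 59.4%) of Vehicle stromal cells had at least 1 of them, 35.6% (33.0 to 38.3%) at least 2, 19.6% (17.5 to 21.9%) at least 3, 8.62% (7.15 to 10.3%) at least 4 and 3.08% (2.21 to 4.17%) at least 5. In Matrigel-only 3.43% (2.66 to 4.36%) had at least 1 and 0.00701% at least 2, and in Palo the shares were 3.61% (2.60 to 4.87%) and 0.126% (0.00806 to 0.555%). Without thinning, 947 of 1373 Vehicle cells had at least 1, 663 at least 2, and 1 cell had all 9. In Palo, 7 of 1184 stromal cells had 2 of the genes and 0 had 3.

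**Figure D3:**
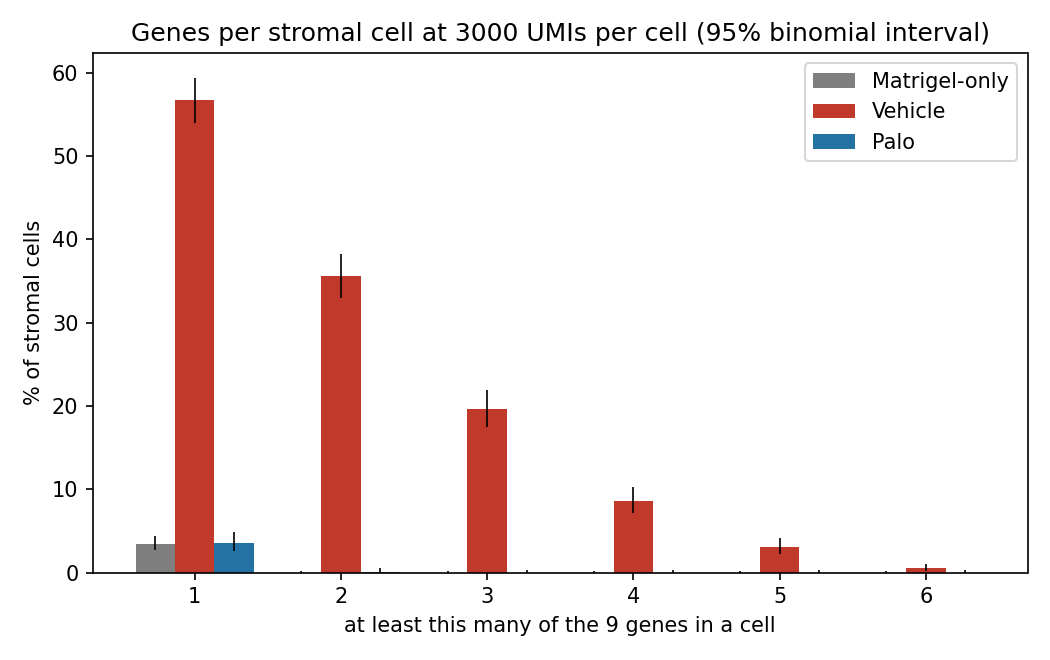
Share of stromal cells with at least 1 to at least 6 of the 9 genes after thinning to 3000 UMIs per cell, with 95% binomial intervals. In Vehicle the share falls from 56.7% at 1 gene to 3.08% at 5 genes, while Matrigel-only and Palo are at 3.43% and 3.61% for 1 gene and near 0 from 2 on.

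Within the Vehicle library detection of the genes was nested rather than spread evenly. Acan had 29948 UMIs in these stromal cells and Hapln1 3051, and the part of abundance in the order of detection was not tested. Of the cells with Hapln1 at 3000 UMIs, 97.7% (94.1 to 99.4%) also had Acan, whereas 24.5% (21.3 to 28.0%) of the cells with Acan had Hapln1. Of the cells with Matn3, 93.8% (86.6 to 97.8%) had Acan, and of those with Comp and Matn4, 89.1% (85.3 to 92.2%) and 85.5% (81.4 to 89.0%). In cells with Acan, Comp was detected in 46.9% (43.0 to 50.8%) and Matn4 in 46.3% (42.5 to 50.2%). In cells without a UMI of Acan, the shares were 5.76% (4.10 to 7.84%) for Comp, 7.89% (5.94 to 10.2%) for Matn4, 0.859% (0.302 to 1.91%) for Matn3 and 0.571% (0.146 to 1.503%) for Hapln1. All 22 cells with Ucma, all 10 with Chad and all 7 with Matn1 had Acan, before thinning. Of the 9 Vehicle cells with Epyc, 5 had Acan.

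The same cells differed in other genes. Col2a1, the main fibrillar collagen of cartilage, was in 86.6% (80.4 to 91.4%) of cells with Hapln1 and in 45.1% (41.2 to 49.0%) of those with Acan. Sox9, the transcription factor of chondrogenesis, was in 73.4% (69.9 to 76.8%) of the cells with Acan and 36.8% (33.1 to 40.6%) of those without. Pi16, a marker of fibroblast progenitors, was in 1.07% (0.430 to 2.19%) and 14.7% (12.1 to 17.6%).

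**Figure D4:**
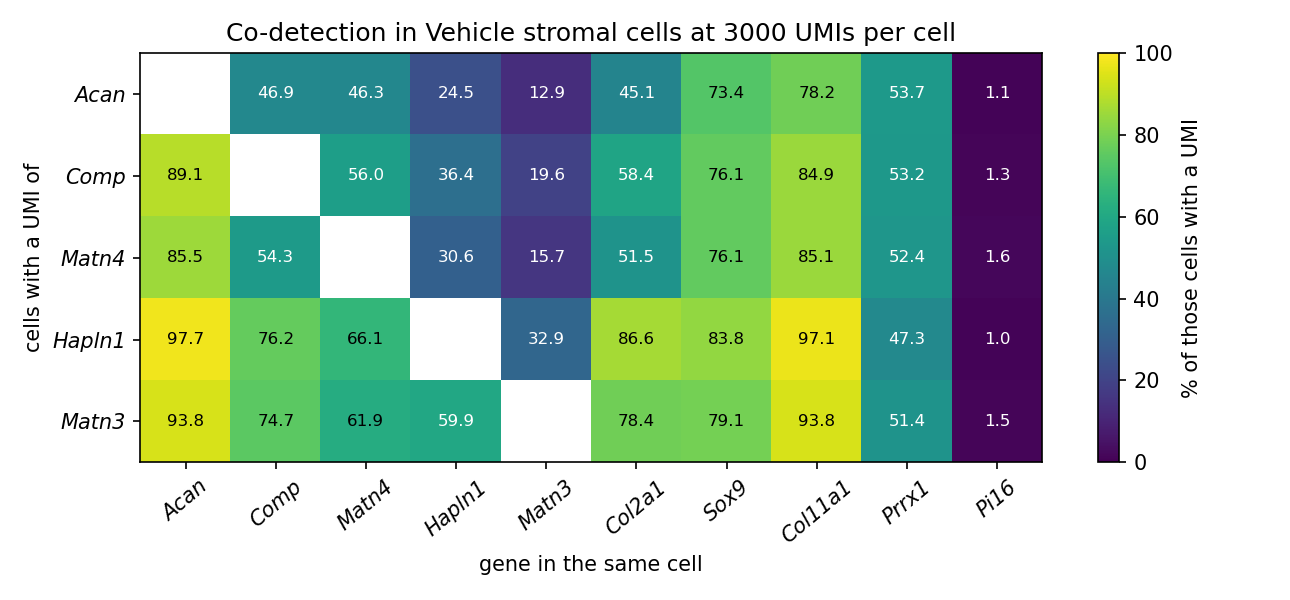
Share of Vehicle stromal cells with a UMI of the gene on the left that also had a UMI of the gene below, at 3000 UMIs per cell, as colour and number in percent. Cells with Hapln1 had Acan in 97.7% and Col2a1 in 86.6%, and the row of Acan shows Hapln1 in 24.5% and Pi16 in 1.1%.

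As a description over 1304 Vehicle stromal cells, which share one library and differ in depth, Pearson correlations of natural log counts per 10000 UMIs, with 1 added, were highest for Comp with Hapln1 (0.65), Hapln1 with Matn3 (0.64) and Acan with Matn4 (0.63). The closest other member was Acan for Matn4, Matn4 for Acan, Hapln1 for Comp and for Matn3, Comp for Hapln1, Chad for Ucma (0.48), for Epyc (0.32) and for Matn1 (0.34), and Ucma for Chad. The values of Chad rest on few cells. Without thinning, 4 Vehicle stromal cells had both Chad and Ucma, 2 had Chad and Epyc, and 2 had Chad and Matn1. Ucma was about as close as Chad to Epyc (0.32) and to Matn1 (0.34). Hapln1 followed Col2a1 more closely than any member (0.79). The sum of the 9 genes was taken over UMIs. Acan was 1269 of its 1931 CPM in Vehicle stromal cells, so likeness to the sum reflects Acan most. Against this sum, the 10 most similar of 12180 other genes were Wwp2 (0.75), Col11a1 (0.75), Col9a1 (0.71), C1qtnf3 (0.70), Frzb (0.70), Slc26a2 (0.68), Col11a2 (0.68), Fgfrl1 (0.67), Col9a3 (0.66) and Capn6 (0.66). Of these, Col9a1, Col9a3, Col11a1 and Col11a2 encode minor cartilage collagens, and Slc26a2 a sulfate transporter needed for proteoglycan sulfation. The lowest were S100a6 (-0.71), Loxl1 (-0.64), Fstl1 (-0.63), Mfap5 (-0.62) and Col5a3 (-0.61).

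The members differed in how they changed along Col2a1, in bins that share one library. Of the Vehicle stromal cells 874 had 0 Col2a1 UMIs, and the others were divided by rising Col2a1 CPM into 4 bins of 125, 125, 125 and 124 cells. Median Col2a1 in bins 1 to 4 was 52.5, 196, 2385 and 12095 CPM. Bin 1 held 131 Col2a1 UMIs in its 125 cells (25.3 to 82.1 CPM), so most of these cells had 1 molecule, near the floor of detection. From the cells without Col2a1 through bins 1 to 4, Acan was at 604, 714, 1569, 2937 and 4418 CPM. Hapln1 was at 6.58, 10.4, 51.6, 214 and 1088 CPM, and Comp at 87.0, 111, 327, 721 and 1727 CPM. Acan was in 33.9% (30.7 to 37.3%) of the cells without Col2a1 at 3000 UMIs, against 1.74% (0.962 to 2.90%) for Hapln1. Matn4 was at 89.7, 76.3, 219, 316 and 620 CPM, and Matn3 at 6.17, 6.55, 22.8, 81.7 and 261 CPM. Matn4 in bin 1 (66.1 to 87.7) and in cells without Col2a1 (84.9 to 94.7) had intervals that overlapped, as did Matn3 (3.82 to 10.5 and 4.96 to 7.58). Those of Hapln1 overlapped as well (6.86 to 15.1 and 5.33 to 8.03). Of the molecules of Matn1, Ucma and Chad, 20 of 21, 51 of 58 and 23 of 30 were in bin 4.

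**Figure D5:**
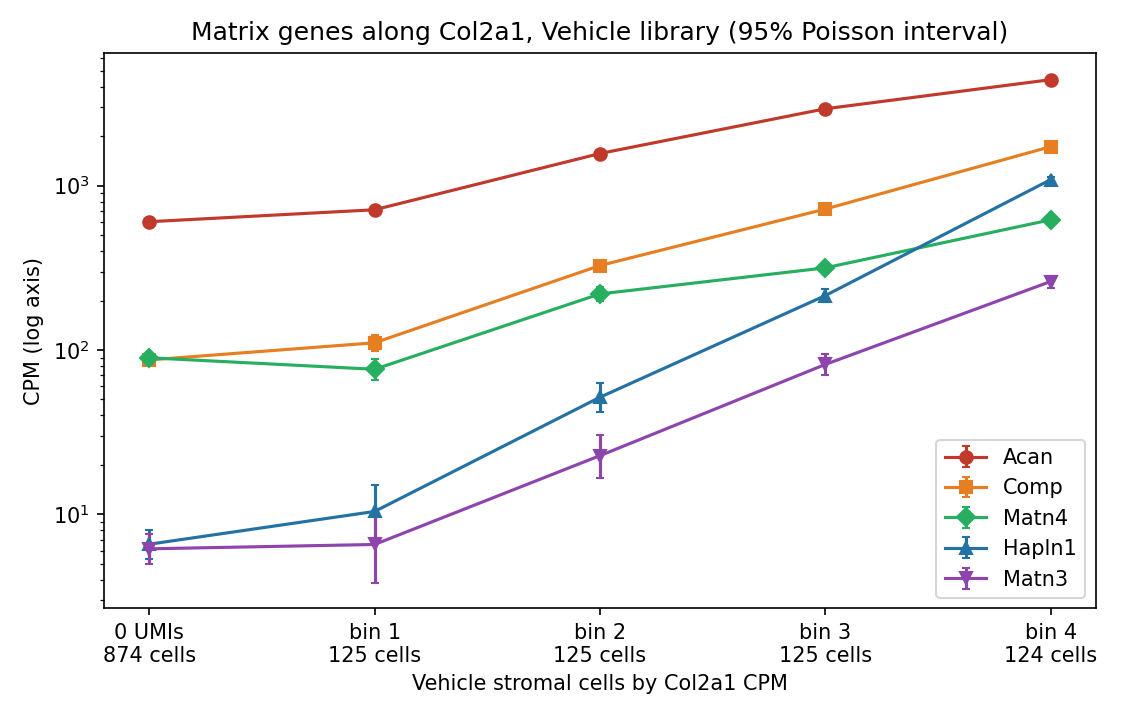
CPM on a log axis of 5 genes (Acan, Comp, Matn4, Hapln1 and Matn3) in Vehicle stromal cells without Col2a1 and in 4 bins of the cells with it, by rising Col2a1 CPM, with 95% Poisson intervals. Acan goes from 604 to 4418 CPM and Hapln1 from 6.58 to 1088 CPM.

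The genes that define stromal cells had a median share of a cell's UMIs of 5.68% in cells without Col2a1 and of 5.85%, 4.27%, 3.40% and 3.08% in bins 1 to 4. Of these genes Lum (0.62) and Dcn (0.34) had positive correlations with the sum of the 9 members, and Col1a1 (-0.26), Col1a2 (-0.28) and Col3a1 (-0.46) negative ones. Over all stromal cells this median was 5.06% in Vehicle, 7.02% in Matrigel-only and 8.32% in Palo. In Matrigel-only, Vehicle and Palo, in that order, 38, 99 and 8 cells lay between 1% and 2% against 56, 52 and 10 just outside, between 0.5% and 1%. With a limit of 5% in place of 1%, Matn3 was no longer past 4-fold in either comparison with Vehicle, and 4 members were. Median depth was between 14493 and 19878 UMIs over the 5 groups of cells.

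The remaining low levels were looked at in the cells that carried them, by splits chosen after the values were seen. In Matrigel-only, 82.8% of the Matn4 molecules were in the cells with Pi16 (15.6 CPM, 13.3 to 18.3, against 3.14 CPM, 2.15 to 4.43, in the rest). In Vehicle the order was reversed, with 58.6 CPM (49.4 to 68.9) in cells with Pi16 and 182 CPM (177 to 188) in those without, and 198 CPM (192 to 204) in cells with Sox9 and 20.2 CPM (15.98 to 25.3) in those without. In Palo, Matn4 was at 13.0 CPM (9.78 to 17.0) with Pi16 and 7.87 CPM (6.35 to 9.66) without, and at 13.1 CPM (10.4 to 16.3) with Sox9 and 6.73 CPM (5.20 to 8.58) without. In Matrigel-only it was at 6.89 CPM (4.92 to 9.38) with Sox9 and 10.3 CPM (8.66 to 12.1) without. Of 30 Palo Matn3 molecules, 23 were in the 280 cells with Fmod, the gene of the collagen-binding fibromodulin, at 5.84 CPM (3.70 to 8.76) against 0.589 CPM (0.237 to 1.21) in the rest. All 34 Palo Chad molecules were in 8 cells with Fmod. In Palo Col2a1 was at 0 and 4 of 1184 stromal cells had Acan, so the lack of both in those 8 cells says nothing about them. The 10 Vehicle cells with Chad all had Acan, Sox9 and Fmod, and 8 had Col2a1. Over all 1373 Vehicle stromal cells, Acan was in 56.7%, Sox9 in 79.7% and Fmod in 87.3%, and 874 had 0 Col2a1 UMIs.

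Of 14 relatives of the members, of which 8 reached a mean of 5 CPM, 0 passed 4-fold higher in either comparison with Vehicle, against 0.989% and 1.02% of all genes. Vcan, the versican of loose connective tissue, was at 519, 634 and 409 CPM in Matrigel-only, Vehicle and Palo, and Matn2 at 71.4, 80.2 and 79.3 CPM. Hapln3, another link protein, was at 0.549, 14.8 and 1.07 CPM, which was 27.04-fold (14.9 to 54.7) and 13.8-fold (8.51 to 23.99) higher in Vehicle without the 5 CPM added. Thbs4, a thrombospondin and relative of COMP, was at 108, 9.79 and 113 CPM, past 4-fold lower in Vehicle in both comparisons. Ogn, the small leucine-rich osteoglycin, was at 1021, 220 and 554 CPM and passed 4-fold lower only in Vehicle over Matrigel-only.

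Over all genes tested, 0.989% passed 4-fold higher in Vehicle over Matrigel-only and 1.02% in Vehicle over Palo, and 1.36% and 0.659% lower. Of the 8 cartilage collagens 6 passed 4-fold higher in both comparisons, with Col2a1 at 0.0499, 1586 and 0 CPM. Genes that, like Col2a1, passed the filter on low levels through Vehicle alone had to be high there, so the counts of these lists are a description. Col10a1, the collagen of hypertrophic chondrocytes, had 5 Vehicle UMIs and 0 elsewhere. Of 10 chondrogenic transcription factors 3 passed in both, namely Sox9, Sox6 and Trps1, and Sox9 was at 53.5, 461 and 57.3 CPM. Of the 15 found of 17 other secreted proteins of cartilage 3 passed in both (Fmod, Susd5 and Cnmd). Of 13 genes of aggrecan partners and aggrecanases, 1 passed 4-fold higher and 2 lower in Vehicle over Matrigel-only, and 2 higher and 1 lower in Vehicle over Palo. Among them Slc26a2 was at 36.0, 385 and 40.1 CPM, and Adamts5, an aggrecanase, at 522, 74.9 and 452 CPM. Xylt1, which starts the chondroitin sulfate chains, was at 17.0, 74.6 and 14.0 CPM and passed only over Palo. Of 9 genes of hypertrophy and bone 6 passed in both (Alpl, Ibsp, Mmp13, Pth1r, Sp7 and Spp1). Of 6 of tendon and joint 1 passed 4-fold higher (Scx) and 1 lower (Egr1) in both. Of 7 progenitor genes 4 passed 4-fold lower in Vehicle than in Matrigel-only and 3 than in Palo. All 7 were lower in Vehicle in both comparisons, by log2 ratios of at most -0.95 over Matrigel-only and -0.48 over Palo with 5 CPM added. In Palo over Matrigel-only none of these lists had a gene past 4-fold in either direction, against 0.0097% of all genes higher and 0.0485% lower.

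Markers of other cells were low in the stromal sums but differed between libraries. The 10 macrophage markers summed to 513 CPM in Matrigel-only stromal cells, to 168 CPM in those of Vehicle and to 352 CPM in those of Palo, and none was at 0, against 13267, 12604 and 12219 CPM in myeloid cells. The 8 endothelial markers summed to 61.1, 11.7 and 39.2 CPM and the 6 mural markers to 38.6, 52.4 and 33.9 CPM. The part of such cells in the differences was not tested, and with stromal cells that also passed the myeloid rule (123, 23 and 58) left out, 5 members passed in each comparison with Vehicle. Total UMIs were 44252421, 46317250 and 46901673 on 9249, 6065 and 7905 barcodes. The libraries shared 19, 21 and 11 barcodes by pair (Matrigel-only and Vehicle, Matrigel-only and Palo, Vehicle and Palo), of which 1, 0 and 0 were stromal in both. Without the stromal cells that share a barcode with the Vehicle library, Comp in Matrigel-only was at 0.449 CPM. The annotation places Rbpjl over Matn4, Acsf2 over Chad, Gm8546 over Hapln1 and Gm10754 over Epyc on the opposite strand, and the strand used in counting is not given in the sources used here, so reads in these overlaps cannot be assigned by strand. Rbpjl had 1, 27 and 0 stromal UMIs and Acsf2 117, 148 and 105.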

How the data were processed

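RNA of single cells from masses taken on day 5 was sequenced in droplets, in 1 library for each group. Per the labels the authors used Cell Ranger 3.0.2, mm10 and Seurat 3, and they deposited UMI counts per barcode and gene, without normalization. Cells with 200 to 6000 genes and at most 5% mitochondrial UMIs were kept, stromal cells by the 1% rule above, and myeloid cells by at least 0.5% of UMIs from 5 myeloid genes. A doublet caller was not run, and the limit of 6000 genes and an alternative without mixed cells took its place. CPM is a gene's summed UMIs per 1000000 UMIs of the class. Thinning to 3000 UMIs used the hypergeometric formula, and both it and the ratio calls were tested on simulated data. The genes changed in that simulation all had higher Matrigel-only levels than any member. It therefore does not cover calls at the levels of the members. Gene spans are those of GENCODE vM21 on mm10. UMIs were not divided by transcript length, and levels of different genes were not tested against each other. The lists and members were chosen with earlier results of these data known, and splits of cells by Fmod, Pi16 and Sox9 in all libraries after seeing the values. The text names the 9 members, the genes of the lists, and the 10 highest and 5 lowest genes by correlation. Alternatives comprised other cell filters, stromal limits, depths, means over cells, subtraction of the myeloid level, and scaling by TMM (edgeR 4.0.16) or DESeq2 1.42.0 size factors. Python 3.11.15, numpy 2.4.6, scipy 1.17.1, pandas 2.3.3, matplotlib 3.10.9 and R 4.3.3 were used.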

Additional observations from a re-analysis of the deposited data

Results flagged for a closer look

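Barcodes removed by the cell limits held cartilage matrix RNA in the Vehicle library. The 9 genes summed to 1066 CPM (1040 to 1092) in its 587 removed barcodes, against 6.78 CPM (3.61 to 11.6) in the 521 of Matrigel-only and 4.06 CPM (1.85 to 7.70) in the 608 of Palo. Those 6540 UMIs were 12.4% of all molecules of the 9 genes in the library, and 5429 of them were on the 104 barcodes with more than 6000 genes.

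Matn1 went in opposite directions in stromal and myeloid cells, as log2 ratios of single libraries whose difference was not tested. In stromal cells it was at 0, 0.890 and 0 CPM in Matrigel-only, Vehicle and Palo, and in myeloid cells at 0.619 CPM (0.330 to 1.06), 0.0825 CPM (0.00209 to 0.459) and 0.543 CPM (0.304 to 0.895). The myeloid log2 ratio was -2.91 (-8.32 to -0.17) for Vehicle over Matrigel-only and -2.72 (-8.11 to -0.02) for Vehicle over Palo, and it rests on 13, 1 and 15 UMIs. Laptm5, a leukocyte gene on the same strand that ends 8243 bases before Matn1, was at 1769, 1419 and 1520 CPM in the same myeloid cells, and its part in the Matn1 counts was not tested.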

How the results depend on the processing

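The 5 members past 4-fold in each comparison with Vehicle, and 0 in Palo over Matrigel-only, were recomputed under 14 alternatives each. The count fell to 4, without Matn3, where stromal cells had to reach 5% of their UMIs in the rule genes, and was 5 in the others. In Palo over Matrigel-only it was 0 in all 14. Apart from Matn4, no member exceeded 2.15 CPM in these libraries in the main setting, so with 5 CPM added they could not reach even 2-fold. These counts of 0 therefore do not show that Palo and Matrigel-only were alike. Members were counted without the filter on low levels in every setting, so leaving it off could not change their count. Of all 10311 genes tested 102, 105 and 1 were past 4-fold higher in Vehicle over Matrigel-only, Vehicle over Palo and Palo over Matrigel-only, and these counts were 151, 159 and 2 with 1 CPM added and 345, 338 and 28 at 2-fold. The share of Vehicle stromal cells with at least 2 members, 35.6%, was 22.1% under the 5% limit, 21.5% at 1000 UMIs per cell, 41.2% at 5000, 48.3% without thinning and 22.4% when 2 UMIs were required. Of 261 recomputed log2 ratios of single members 244 stayed within the counting interval and 17 did not, and apart from Matn4 in Palo over Matrigel-only (from -0.14 to 0.03) none changed sign. The lowest for Matn3 over Palo was 2.41 (5% limit). Leaving out the deepest 5% of stromal cells took Chad in Palo over Matrigel-only from 5.43 to 3.81. The summed level of Chad stayed higher in Palo than in Vehicle under all 11 alternatives. These rest largely on the same few cells, 8 in Palo and 10 in Vehicle, and the share of cells without thinning was not higher in Palo. Matn1 has no ratio under the 5% limit, where both counts are at or below 3. Subtracting each member's level in myeloid cells left Comp in Matrigel-only at the level of 3 UMIs. Its log2 ratio of Vehicle over Matrigel-only was then 11.03, against 9.33 (8.45 to 10.39) in the main setting. Comp had no ratio of Palo over Matrigel-only there. No paired analysis was possible because each group is 1 library, and no replicate could be left out. Low counts, of 0 to 34 UMIs, limit what can be said of Matn1, Chad, Epyc and, outside Vehicle, of Acan, Comp, Matn3 and Hapln1.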
